A study of Mus musculus with 4 samples.

Results

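The regions described here are promoters that were called open in Med23-deleted hematopoietic stem cells and not in control cells. They were chosen by measured values: a peak of the KO list on an autosome was kept when it shared no base with any WT peak and when its summit, the position of highest signal, lay within 1000 bp of an annotated start site of a protein-coding gene (GENCODE M21, mouse build GRCm38). The KO list held 37639 peaks and the WT list 37919, of which 36600 and 36849 were on autosomes. Of 13275 KO peaks at coding starts, 975 (7.34%) were KO-only, and they lay nearest to starts of 924 genes. This is 7.23% of the 12773 autosomal coding genes with a KO summit within 1000 bp of any of their starts. That base also counts genes that were not the nearest to a summit, and 11611 genes were the nearest to a KO promoter peak. The same rule in the other direction left 1022 of 13283 WT promoter peaks (7.69%) without a KO peak. Over all autosomal KO peaks, 7622 (20.8%) were KO-only.

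Open chromatin was mapped by ATAC-seq (transposase cutting of accessible DNA) in hematopoietic stem cells (HSCs) sorted from the bone marrow of adult C57BL/6 mice, 5000 cells per sample. WT cells carried floxed Med23 alleles without a cre transgene, and KO cells carried the same alleles with Mx1-cre, a recombinase that is driven by the inducible Mx1 promoter, is switched on by poly(I:C) and is not restricted to HSCs. The labels describe the gate as LSK CD150+ CD34- CD48-, whereas the methods of the study name CD150+ CD48- LSK cells. Each genotype had 2 samples, but they share 1 peak list, so that 1 WT list was compared with 1 KO list, there was no replicate check, and no test was possible. The lists hold no measure of the deletion itself. Of 12 stem cell marker genes, 8 had a promoter peak in both lists, among them Kit, Mecom, Hlf, Esam, Fgd5, Pdzk1ip1 and Tek, whereas Ly6a, Slamf1, Procr and Hoxb5 had none. Most lineage antigens had no promoter peak in either list.

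Promoters are the stretches of DNA around start sites where RNA polymerase II is loaded, and many mammalian genes have several of them, so that an internal start can be used in one cell type while the upstream start is used in another. MED23 is a subunit of Mediator, the complex that links transcription factors to the polymerase. Promoters rich in CG dinucleotides (CpG islands) are mostly open in every cell type, whereas CG-poor promoters are more often those of genes used in 1 lineage. HSCs keep many lineage genes at low accessibility before the cells commit.

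A few start sites show the kinds of promoter found. The 150 bases before each start are given on the strand of the gene, 5′ to 3′, with CG dinucleotides in capitals. Prg3 (an eosinophil granule protein, chr2:84988065-84988214, plus strand) and Cpa3 (mast cell carboxypeptidase A3, chr3:20242182-20242331, minus strand) were CG-poor starts at which WT had no peak within 1 kb, and Irf8 (a transcription factor of monocytes and dendritic cells, chr8:120736208-120736357, plus strand) was a CG-rich one. For Sh2d3c (an SH2 domain adaptor, plus strand), the first start (chr2:32720905-32721054) was open in both lists, with a highest pileup of 29 in KO and 20 in WT, and the KO-only peak lay at a start 6651 bp downstream (chr2:32727556-32727705). For Nfe2 (a transcription factor of megakaryocytes and erythroid cells, minus strand), the first start (chr15:103258404-103258553) had a pileup of 87 in KO and 82 in WT, and the KO-only peak lay at a start 2964 bp downstream (chr15:103255440-103255589).
Prg3: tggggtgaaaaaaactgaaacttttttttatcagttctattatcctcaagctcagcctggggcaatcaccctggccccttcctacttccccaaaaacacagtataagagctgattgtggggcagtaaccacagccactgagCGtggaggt
Cpa3: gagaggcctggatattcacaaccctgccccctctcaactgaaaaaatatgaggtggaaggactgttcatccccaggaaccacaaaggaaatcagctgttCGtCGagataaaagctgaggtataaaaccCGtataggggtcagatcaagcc
Irf8: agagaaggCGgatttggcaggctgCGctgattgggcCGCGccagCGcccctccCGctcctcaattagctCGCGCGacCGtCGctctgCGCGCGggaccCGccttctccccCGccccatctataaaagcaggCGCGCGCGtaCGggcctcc
Sh2d3c first: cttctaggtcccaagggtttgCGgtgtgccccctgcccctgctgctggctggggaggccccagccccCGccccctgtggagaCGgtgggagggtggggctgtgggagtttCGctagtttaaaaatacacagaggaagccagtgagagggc
Sh2d3c alternative: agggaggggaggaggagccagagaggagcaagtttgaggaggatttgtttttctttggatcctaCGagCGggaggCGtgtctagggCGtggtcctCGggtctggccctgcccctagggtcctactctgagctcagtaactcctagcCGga
Nfe2 first: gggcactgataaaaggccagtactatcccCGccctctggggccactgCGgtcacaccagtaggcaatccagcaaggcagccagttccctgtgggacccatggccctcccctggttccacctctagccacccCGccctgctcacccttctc
Nfe2 alternative: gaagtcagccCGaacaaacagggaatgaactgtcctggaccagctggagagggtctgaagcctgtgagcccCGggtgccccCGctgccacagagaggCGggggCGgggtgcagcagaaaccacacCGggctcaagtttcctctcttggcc
The Prg3 stretch held 1 CG and the Cpa3 stretch 3, against 21 in that of Irf8. The Sh2d3c stretches held 4 (first start) and 6 (alternative start), and those of Nfe2 3 and 6. The letters TATAAAA stood in the Cpa3 and Irf8 stretches.

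The KO-only promoter peaks were small. MACS2 gives each summit a fold enrichment, (pileup + 1) divided by (local background + 1), and the pileup, the number of reads or fragments over the summit, was recovered from the fold and its p-value. Because the peaks were selected on being called in only 1 list, the following values are a description. The median fold was 4.59 (quartiles 3.76 and 5.65, range 2.16 to 14.9) and the median pileup 11 (quartiles 9 and 15, range 6 to 55), against a fold of 9.47 and a pileup of 32 for the 12300 KO promoter peaks shared with WT. The median width was 400 bp, against 914 bp. By fold, the KO-only promoters sat at a median percentile of 14.0 in the KO list, 70 of 975 were above its median and 1, Snap25, was in its highest 10%. The WT-only promoters were alike in size, with a median fold of 4.21, a median pileup of 10 and a median width of 376 bp.

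The lowest pileup of any called autosomal peak was 6 in either list. Among KO promoter peaks with a pileup of 6 to 9, 45.9% were KO-only (95% Wilson interval 42.3 to 49.6, 322 of 701). This share was 21.8% at 10 to 14, 9.27% at 15 to 19 and 3.73% at 20 to 29, and it was 0.348% (0.232 to 0.521, 23 of 6613) at 30 or more. In the WT list the corresponding shares were 53.4%, 24.9%, 8.16%, 2.02% and 0.168%. The KO share was below the WT share in the 2 lowest bands and above it in the other 3, and the intervals of the 2 lists did not overlap at 6 to 9 and at 20 to 29. Pileups were not scaled between the lists. The median of the 1000 lowest local backgrounds was 1.125 in KO and 1.194 in WT, so the same band need not be the same enrichment in both. Intervals here and below cover counting error only, and a promoter missing from the WT list may have had reads there that did not pass the peak caller's threshold.

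**Figure D1:**
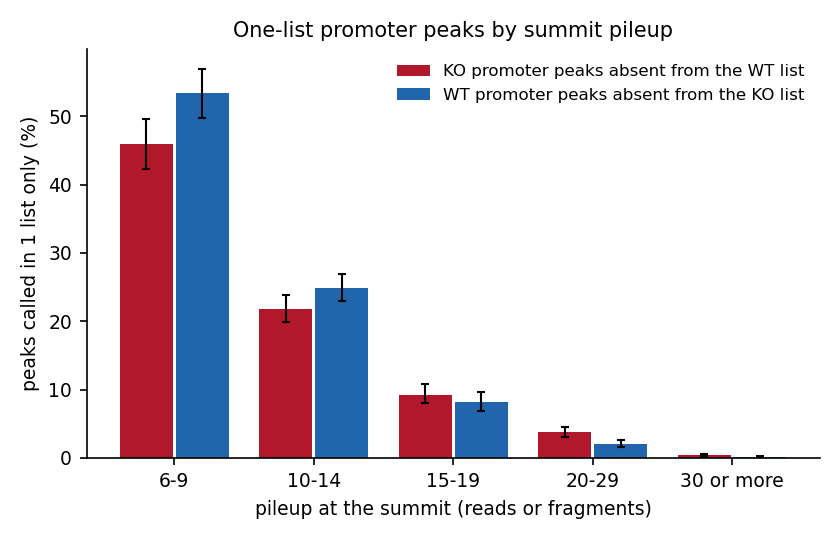
Share of promoter peaks called in 1 list only (y axis, %) by pileup at the summit (x axis, reads or fragments), for the KO list (red) and the WT list (blue); error bars are 95% Wilson intervals. The KO share falls from 45.9% at a pileup of 6 to 9 to 0.348% at 30 or more.

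The 23 KO-only promoters with a pileup of at least 30 stood in a higher local background than the others, with a median of 6.61 against 1.34 for the 952 under 30 and 3.48 for shared promoters with a pileup of at least 30. Their median fold was 4.66, against 4.59 for the KO-only promoters under 30 and 12.2 for those shared promoters. By the definition of fold, a higher pileup at a like fold means a higher local background. The nearest WT peak to these 23 was a median of 2276 bp away. The highest pileups were those of Dtymk (thymidylate kinase, pileup 55, exact 95% Poisson interval 41.4 to 71.6, local background 7.41), Zfp605 (a zinc finger gene, 46, background 9.10), Ilk (integrin-linked kinase, 42, background 5.61), Akna (40, background 8.04) and, with equal pileups of 38, Dennd1b (background 3.83), Parn (a poly(A) ribonuclease, background 4.39) and Zfp36 (an RNA-binding protein that promotes mRNA decay, background 11.7). The summits of Dtymk, Zfp605 and Akna were within 57 bp of the gene's first start, and the nearest WT peaks to them began 1361, 1529 and 1298 bp away. Whether a neighbouring peak set the local background was not tested.

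By fold, Snap25 (a SNARE protein of synaptic vesicle release) came first, and it had a fold of 14.9 and a pileup of 32 (21.9 to 45.2) at chr2:136714159-136714587, 829 bp downstream of its first start, with no WT peak within 33815 bp. Sqor (mitochondrial sulfide oxidation) followed with a fold of 12.6 and Sh2d3c with 12.3, both at alternative starts. Prg3 had a fold of 11.8 and a pileup of 32 (21.9 to 45.2) 47 bp upstream of its start, and Cpa3 a fold of 10.6 and a pileup of 30 (20.2 to 42.8) 31 bp upstream. Olfr1509 (an olfactory receptor, fold 11.3), the uncharacterised 2200002J24Rik (10.8), Cacnb2 (a calcium channel subunit, 10.5), Eif2d (a translation initiation factor, 10.3) and Pick1 (10.0) completed the 10 highest. The next 5 were Slc39a10 (a zinc transporter, 9.88), Rgs9 (a regulator of G protein signalling, 9.88), Ubxn11 (9.88), Lilra6 (a leukocyte receptor of the immunoglobulin family, 9.86) and Lrrc34 (9.63). Of these 15 genes, Prg3, Cpa3 and Lilra6 are known chiefly from blood cells. The WT list had no promoter peak for 10 of the 15, which are Snap25, Prg3, Olfr1509, 2200002J24Rik, Cpa3, Eif2d, Rgs9, Ubxn11, Lilra6 and Lrrc34.

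The summits lay farther from the start than those of shared promoters. The median distance was 204 bp, against 68 bp for shared promoters and 104.5 bp for the 1852 shared promoters with a like pileup of 9 to 15. That set was limited by pileup only and is set beside all 975 KO-only promoters. Its median fold was 5.64, against 4.59 for the KO-only promoters. Within 100 bp of the start lay 36.9% of KO-only summits (34.0 to 40.0), 49.4% of the shared ones at like pileup (47.1 to 51.7) and 62.0% of all shared ones (61.2 to 62.9). The WT-only promoters, at 38.1% (35.1 to 41.1), were not told apart from the KO-only ones by these intervals. KO-only summits lay on either side of the start, 48.7% of them downstream (45.6 to 51.8), against 48.4% of WT-only summits, 52.4% of shared summits at like pileup (50.1 to 54.6) and 37.6% of all shared summits. In the annotation of coding genes, 396 summits were in introns, 202 in UTR exons, 197 outside coding genes, 121 in coding exons and 59 in exons of noncoding transcripts.

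**Figure D2:**
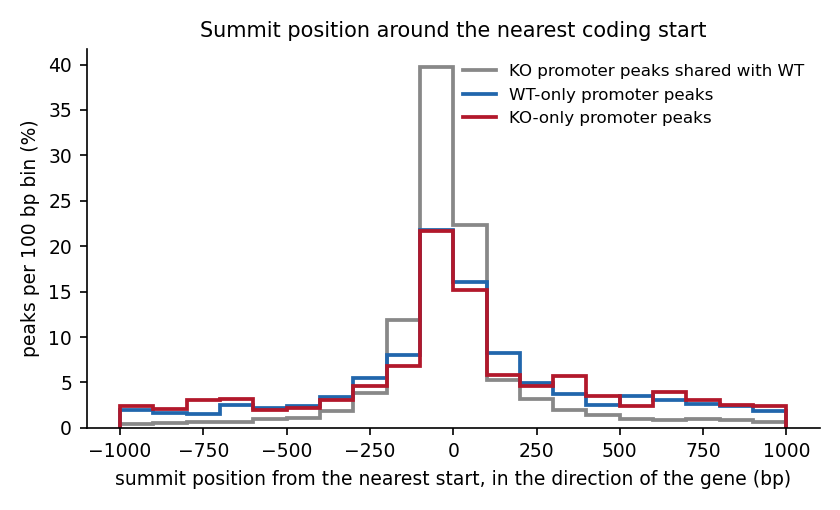
Position of the summit from the nearest coding start (x axis, bp, positive downstream) for KO-only (red), WT-only (blue) and shared (grey) promoter peaks, as % of peaks per 100 bp bin (y axis). Both 1-list groups are flatter than the shared promoters, with 36.9% and 38.1% of summits within 100 bp against 62.0%.

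Most of the KO-only promoters were at a start that is not the gene's first. A start was called alternative when it lay more than 100 bp from the 5′ end of the gene, and this held for 532 of 975 (54.6%, 51.4 to 57.7), against 49.4% of WT-only promoters (46.4 to 52.5), 40.4% of shared promoters at like pileup (38.2 to 42.6) and 32.9% of all shared promoters (32.1 to 33.8). The intervals of the KO-only and WT-only shares overlapped, and both lay above that of the shared promoters at like pileup. Genes were alike in the number of annotated starts, with a median of 5 for KO-only and for shared promoters. The nearest start belonged to a protein-coding transcript in 635 cases (65.1%), to a processed transcript without a reading frame in 153, to a retained-intron transcript in 147 and to a transcript marked for nonsense-mediated decay in 39. With only the starts of GENCODE's basic transcripts, a set that leaves out most partial models, the alternative share was 36.1%. The alternative class therefore depended on which annotated starts were admitted.

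The promoters were divided by whether the gene was open elsewhere in WT. For 482 (49.4%, 46.3 to 52.6), at 461 genes, no WT summit lay within 1 kb of any start of the gene. For 368 (37.7%, 34.8 to 40.8), a WT summit lay at another start of the gene that was more than 1 kb from the KO-only summit. For 118 (12.1%, 10.2 to 14.3), a WT summit lay within 1 kb of the same start beside the KO-only peak, and for 7 it lay only at a neighbouring start. For WT-only promoters, with the lists exchanged, the shares were 57.1% (54.1 to 60.1), 30.0% (27.3 to 32.9) and 12.3%. The share with another open promoter was thus higher for KO-only than for WT-only promoters, with intervals that did not overlap. These intervals run over peaks, so they are no test of genotype, and that difference has no replicate check. Alternative starts with the first start more than 1 kb away made up 45.5% of KO-only and 38.3% of WT-only promoters, and the part of this mix in the difference was not tested. Counted over genes and all peaks, 563 of the 12773 genes with a KO promoter peak (4.41%) had none in WT, and 646 of the 12856 with a WT promoter peak (5.02%) had none in KO.

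The 2 classifications went together, in part by their definitions. A promoter at an alternative start with the first start more than 1 kb away always has another start at which a WT peak can count. A promoter at a first start may have no such other start, and the part of this in the shares was not tested. Of the 443 promoters at first starts, 321 (72.5%, 68.1 to 76.4) had no WT promoter peak anywhere in the gene and 63 had one at another start. Of the 444 at alternative starts with the first start more than 1 kb away, 292 (65.8%, 61.2 to 70.0) had a WT peak at another start and 102 had none. In the remaining 88, the first start was within 1 kb of the summit, and 59 of these had no WT promoter peak. The WT-only promoters had 76.2% without a KO promoter peak among first starts and 61.9% with another open start among the farther alternative starts.

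**Figure D3:**
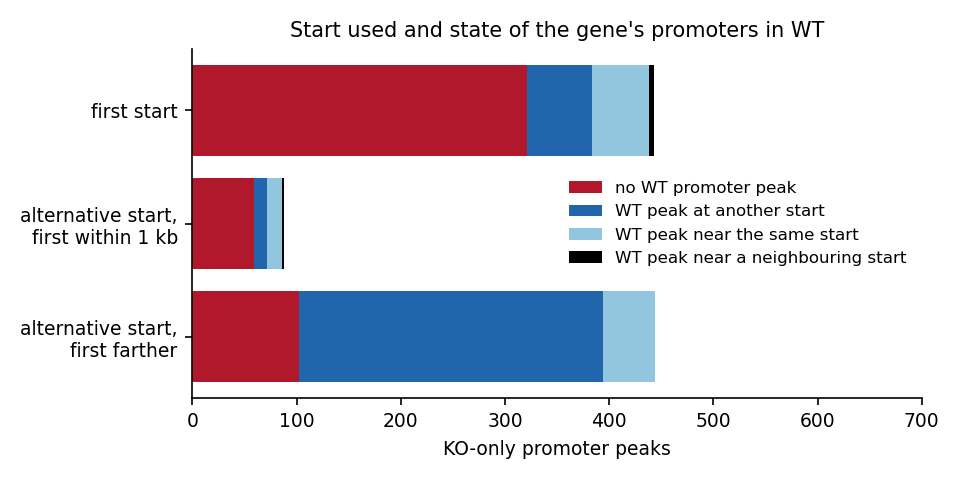
Number of KO-only promoter peaks (x axis) by the start they lie at (y axis) and by whether the gene has a WT promoter peak (colours). Of first-start peaks 321 of 443 have no WT promoter peak, and of alternative-start peaks with a farther first start 292 of 444 have a WT peak at another start.

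Where another promoter of the gene was open in WT, the gene's strongest other promoter was mostly larger than the KO-only peak. The choice of peaks favours this result. KO-only peaks were small as a group, and each was set beside the strongest of the gene's other promoters. The WT pileup at the strongest other promoter had a median of 30 (quartiles 19 and 51). KO had a peak at another start for 341 of these 368 promoters, with a median pileup of 33 (20 and 54), and the KO-only peak reached a median of 37.5% of that pileup (23.0 and 61.5). The KO peak at the other start can itself be KO-only. In 29 of 341 pairs, the KO-only peak was higher than the peak at the other start. Sema4d (a semaphorin) was such a case at its Sema4d-202 start, with a KO-only pileup of 31 against 19 at the strongest promoter in WT, and Dennd1b was another, with 38 against 24 in KO and 38 in WT. Sqor (29 against 62 in KO and 58 in WT), Cacnb2 (22 against 70 in both lists) and Slc39a10 (20 against 127 and 139) were more usual.

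**Figure D4:**
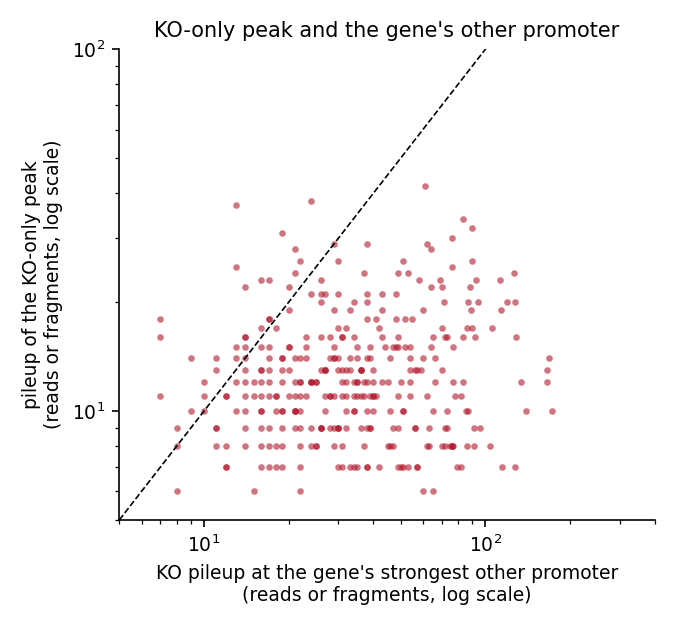
Pileup of the KO-only peak (y axis) against the KO pileup at the gene's strongest other promoter (x axis), both in reads or fragments on log axes. Shown are the 341 KO-only peaks whose gene has a peak at another start in each list, and that other KO peak can itself be KO-only. The dashed line marks equal pileups, and 29 points lie above it.

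The 118 promoters with a WT summit near the same start were weaker, with a median fold of 3.87 and a median percentile of 6.30, against 4.71 and 16.4 for the promoters of genes without a WT promoter peak. Their nearest WT peak was a median of 353 bp away. Susd5 (fold 7.39, WT peak 88 bp away), Alg9 (a mannosyltransferase, 7.06, 1012 bp), Hlcs (holocarboxylase synthetase, 6.59, 192 bp), Coq2 (coenzyme Q synthesis, 6.35, 502 bp) and Mnx1 (a homeobox gene, 6.24, 522 bp) had the highest folds. Over all 975, the nearest WT peak was a median of 6241 bp away, within 100 bp for 32 and within 1000 bp for 178. At the limit of the rule, the peaks of Bmp8b, Sox6 and Nrg4 missed a WT peak by 7 bp, whereas those of Adgrl3, H2-DMa and Dmrt3 shared 1, 2 and 4 bp with one and were left out. Summits of Acin1 and Tmem135 lay 999 bp and that of Siah3 997 bp from the start, and those near Rragd, Crebbp and Itga9 lay just outside, at 1002, 1006 and 1008 bp.

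First starts of genes without any WT promoter peak were the largest single class, with 321 promoters at 318 genes, and 46 of them had a pileup of at least 20. Snap25, Prg3, 2200002J24Rik, Cpa3 and Eif2d had the highest folds among them. Irf8 had a pileup of 20 (12.2 to 30.9) 10 bp upstream of its first start, at chr8:120735932-120736771, and a second KO-only peak of 13 (6.92 to 22.2) at the internal Irf8-203 start, and the nearest WT peak to the first of them was 67238 bp away. Axl (a receptor tyrosine kinase that takes part in clearing dead cells) likewise had 2 KO-only peaks, with pileups of 20 (12.2 to 30.9) at the first start and 17 (9.90 to 27.2) at an internal one, and no WT promoter peak. Of the 461 genes without a WT promoter peak, 142 had no WT peak in the gene or within 10 kb on either side. In all, 50 genes had more than 1 KO-only promoter, and only Ptch1 (the hedgehog receptor) had 3, with pileups of 29, 21 and 10, beside a promoter that was open in both lists with pileups of 38 in KO and 36 in WT.

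The genes of blood lineages were counted on lists of known genes, beside the share of 7.23% given above and in the same way. A gene had a KO promoter peak when a KO summit lay within 1 kb of any of its starts. It had a KO-only one when it was the gene nearest to such a peak. The counts are small, and the WT-only promoters of the same lists are given with them. Of 21 granulocyte and macrophage genes with a KO promoter peak, 5 had a KO-only one (Prtn3, Tyrobp, Cebpa, Cebpd and Irf8), and of 23 with a WT promoter peak 5 had a WT-only one (Fcer1g, S100a8, S100a9, Ltf and Gfi1). Prtn3 (neutrophil proteinase 3) had a pileup of 20 (12.2 to 30.9) at an internal start and no WT promoter peak, and the nearest WT peak was 1341 bp away. Cebpd had 24 (15.4 to 35.7), beside an open promoter of 49 in KO and 51 in WT, and Cebpa, which directs granulocyte commitment, had 17 (9.90 to 27.2) in its coding exon, 419 bp from a WT peak at the same start. Tyrobp (the signalling adaptor DAP12) had 11 (5.49 to 19.7) 7 bp upstream of its first start, and a WT summit lay within 1 kb of that start. By fold, Prtn3 had 4.18, Cebpd 3.80, Cebpa 3.10, Tyrobp 3.76 and the first Irf8 peak 8.38, beside the KO-only median of 4.59.

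Of 12 lymphoid genes with a KO promoter peak, 4 had a KO-only one (Tcf7, Bcl11b, Gata3 and Cd7), and of 12 in WT 3 had a WT-only one (Il7r, Cd5 and Gzmb). Bcl11b, a transcription factor of T cell commitment, had a pileup of 18 (10.7 to 28.4) 564 bp upstream of its first start. WT had no promoter peak for it, and the nearest WT peak was 2066 bp away. Tcf7 and Cd7, a T cell transcription factor and a surface antigen of T and NK cells, each had 7 (2.81 to 14.4). Neither had a WT promoter peak, and the nearest WT peaks were 34065 and 1859 bp away. Gata3 had 28 (18.6 to 40.5) at an alternative start, against 33 in WT and 21 in KO at its strongest other promoter. The folds were 6.545 for Bcl11b, 3.76 for Tcf7, 3.76 for Cd7 and 3.54 for Gata3, whose local background was 7.18.

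Of 18 megakaryocyte and erythroid genes with a KO promoter peak, 5 had a KO-only one, among them Gp9, Vwf, Nfe2 and Zfpm1, and of 16 in WT 4 had a WT-only one (Itgb3, Treml1, Ank1 and Sptb). Gp9, a subunit of the platelet receptor for von Willebrand factor, had 2 peaks at its first start, with pileups of 23 (14.6 to 34.5) and 15 (8.40 to 24.7). It had no WT promoter peak, and the nearest WT peak to the larger of the 2 was 1345 bp away. Vwf (8, 3.45 to 15.8), Nfe2 (20, 12.2 to 30.9) and Zfpm1 (the GATA cofactor FOG1; 13, 6.92 to 22.2) were open at another start in both lists, with WT pileups of 21, 82 and 79 there. The folds were 6.53 and 4.32 for the Gp9 peaks, 4.235 for Vwf, 2.865 for Nfe2 and 4.28 for Zfpm1. In each of these 3 lineage lists, genes with KO-only and with WT-only promoters differed in number by at most 1, and no list was tested.

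Of 37 cell cycle genes with a KO promoter peak, 4 had a KO-only one, and 1 of 34 (Cdk1) had a WT-only one. Mcm2, a subunit of the replicative helicase, had a pileup of 34 (23.5 to 47.5) 30 bp downstream of its first start, at chr6:88898451-88898894, in a local background of 4.75. Ccnd1 (cyclin D1) had 19 (11.4 to 29.7) at its first start and 20 (12.2 to 30.9) at an internal one, and Cdkn1a (the inhibitor p21) had 10 (4.80 to 18.4) at an alternative start. WT had no promoter peak for these 3 genes, and the nearest WT peaks to the Mcm2, the first Ccnd1 and the Cdkn1a peak lay 3086, 1677 and 1419 bp away. Cdkn2a had 9 (4.12 to 17.1), beside a promoter that was open in both lists. Of 30 cytokine and growth factor receptor genes, Il5ra (6, 2.20 to 13.1) and Il9r (11, 5.49 to 19.7) had KO-only promoters at first starts, and Il1r1, Il3ra and Cxcr2 had WT-only ones. Of 19 stem cell genes, 1 had KO-only promoters, and 2 genes of this list (Mecom and Erg) had WT-only promoters. The 1 gene was Gata2, needed to maintain HSCs, with 26 (17.0 to 38.1) at the first start and 15 (8.40 to 24.7) at an internal start. These 2 Gata2 peaks had folds of 4.41 and 2.63, and its strongest promoter had a pileup of 30 in KO and 29 in WT. None of the 29 Mediator subunit genes with a KO promoter peak had a KO-only one, beside 7.23% of all genes with a KO promoter peak. Of 31 Mediator genes with a WT promoter peak, Med24, Med25 and Med27 had WT-only ones, beside 973 of all 12856 genes with a WT promoter peak. Counts this small were not tested against those shares. Of 9 genes with a KO promoter peak that the study names as changed in KO cells, a list chosen on the same cells, Cebpa and Tyrobp had KO-only promoters.

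The DNA at the summits was poorer in CG than at shared promoters. The rule did not use sequence. Over the summit and 100 bases on each side, median GC content was 58.2% for KO-only promoters, 63.7% for shared promoters at like pileup, 65.2% for all shared promoters and 47.8% for the 6647 KO-only peaks away from coding starts. The ratio of observed to expected CG dinucleotides had medians of 0.492, 0.717, 0.793 and 0.209. CpG-rich windows, with GC over 55% and a ratio over 0.65, made up 34.0% of KO-only promoters (31.0 to 37.0), 53.5% of shared promoters at like pileup (51.2 to 55.8), 65.0% of all shared promoters and 2.33% of the KO-only peaks elsewhere. The WT-only promoters had 37.8% (34.8 to 40.8), an interval that overlapped that of the KO-only ones.

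The CG content followed the start. At first starts 43.6% of KO-only promoters were CpG-rich (39.0 to 48.2), at alternative starts with the first start within 1 kb 65.9% (55.5 to 75.0), and at alternative starts farther away 18.0% (14.7 to 21.9). Median GC contents were 60.7%, 65.9% and 54.0%. The 331 CpG-rich promoters had a median distance of 85 bp from the start and 63.1% of them (57.8 to 68.2) had no WT promoter peak for the gene, while the other 644 lay at a median of 307 bp and 42.4% (38.6 to 46.2) had none. Pileups were nearly equal, with medians of 12 and 11. Mcm2, Dtymk and Irf8 were of the CpG-rich kind, with ratios of 0.979, 1.12 and 1.06, and Prg3, Cpa3, Gp9 and Lilra6 of the other, with ratios of 0.0827, 0.294, 0.116 and 0.0677.

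**Figure D5:**
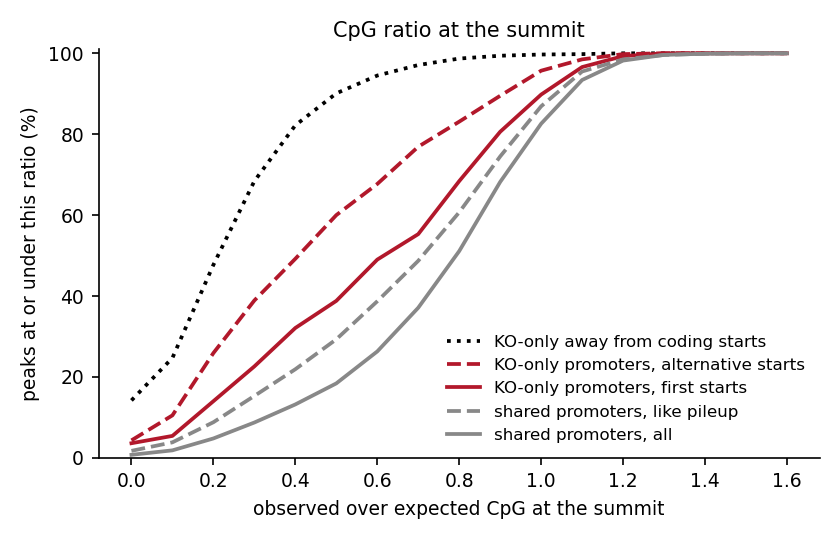
Cumulative share of peaks (y axis, %) by the ratio of observed to expected CG dinucleotides in the window around the summit (x axis). KO-only promoters (red) lie between shared promoters (grey) and KO-only peaks away from coding starts (black), with alternative starts lower in CG than first starts.

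Short motifs were counted on both strands of the same windows, as descriptions of the letters and not as sites of binding. The SP/KLF box GGGGCGGGG stood in 6.97% of KO-only promoters (5.54 to 8.75), in 11.4% of shared promoters at like pileup (10.1 to 13.0) and in 16.0% of all KO promoter peaks. The ETS letters CCGGAAGT stood in 2.15% (1.41 to 3.27), 3.73% (2.95 to 4.69) and 5.36%, and the NF-Y letters CCAATCA in 3.18% (2.25 to 4.48), 2.21% (1.64 to 2.99) and 8.20%. The PU.1-type letters GAGGAAGT stood in 4.62% of KO-only promoters (45 of 975, 3.47 to 6.12), 2.21% of shared promoters at like pileup (1.64 to 2.99), 2.76% of all KO promoter peaks, 3.03% of WT-only promoters (2.15 to 4.27) and 9.09% of KO-only peaks away from starts. The AP-1 letters TGANTCA had shares of 5.54% (4.27 to 7.16), 3.67% (2.91 to 4.63), 3.31%, 4.4% (3.31 to 5.84) and 10.0%. For either motif the intervals of KO-only and WT-only promoters overlapped. Promoters with the PU.1-type letters were, among the 15 highest by fold, those of Olfr1509, Pick1 and Lilra6, and elsewhere included those of Tyrobp, Il9r, Zfp605, Kif23 and Fam131a. Of the other motifs searched, the C/EBP letters TTGCGCAA stood in 1 of 975 windows, and those of RUNX (TGTGGTTT), the TATA box (TATAAAA), CTCF (AGGGGGCGC), CRE (TGACGTCA), NRF1 (GCGCATGCG) and GATA (AGATAAGA) in 1.85%, 1.44%, 1.74%, 1.13%, 0.615% and 0.308%, against 1.15%, 0.972%, 1.82%, 2.46%, 1.97% and 0.339% of all KO promoter peaks. Repeats covered over 50% of the window in 17 of 975.

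By chromosome, KO-only promoters made up between 5.49% (chromosome 8) and 9.69% (chromosome 12) of KO promoter peaks, and none of the 19 autosomes lacked them. For 33 of the 975, starts of more than 1 coding gene lay within 1 kb of the summit, so that the gene named is only the nearest.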

How the data were processed

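ATAC-seq peak lists of mouse HSCs were analysed, with 2 samples per genotype naming 1 list. Per the labels and methods, the authors trimmed reads (Trim Galore), aligned them to mm10 (Bowtie2), removed duplicates and mitochondrial reads (Picard) and called peaks with MACS2, with versions not given in the sources used here. The deposited columns hold a fold enrichment (a ratio), a p-value and a q-value as −log10, a display score and the summit offset. Read depth and any pooling of samples are not given in the sources used here. Pileup and local background were solved from fold and −log10 p with a background of at least 0.9, and matched within 0.001 for 37916 of 37919 WT and 37634 of 37639 KO peaks, after tests on simulated data. Starts were those of all GENCODE M21 transcripts of protein-coding genes (GRCm38), and sequences were read from that genome, beyond whose chromosome ends 0 peaks reached. Peaks sharing at least 1 bp were shared. Shares carry 95% Wilson intervals and single pileups exact Poisson intervals. Named promoters were the 15 highest by fold, the 5 highest by pileup, those in 9 gene lists, the 5 highest by fold in each of 3 start classes and genes with more than 1, with examples among the last; promoters at the limits of the rule and those whose sequences are shown were picked for illustration. A few genes of the lists are not reported here. The members and lists were chosen with earlier results of these data known. Alternatives changed q, overlap, distance, annotation, chromosomes and sequence window. Python 3.11.15, pandas 2.3.3 and SciPy 1.17.1 were used.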

Additional observations from a re-analysis of the deposited data

How the results depend on the processing

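No paired analysis was possible because both samples of a genotype name 1 peak list, and for the same reason leaving out a replicate could not be run. The values below are, in order, the share of KO promoter peaks that were KO-only, the share at alternative starts, the share with a WT peak at another start of the gene and the share with a WT summit near the same start, which were 7.34%, 54.6%, 44.0% (counting also promoters that have a WT summit near the same start) and 12.1% as reported. When peaks of either list needed a −log10 q of 5 or more they were 8.69%, 48.3%, 32.9% and 1.34%, with 1048 promoters at 1010 genes, and at 10 or more they were 11.3%, 43.4%, 19.9% and 0.360%, with 1110 at 1084 genes. With 10 or more in KO against all WT peaks, 109 promoters at 108 genes remained, with 1.11%, 49.5%, 39.4% and 2.75%. Counting a WT peak within 500 bp as shared gave a KO-only share of 6.58% and a same-start share of 4.58%. Requiring an overlap of 50% of both peaks gave 2190 promoters at 1984 genes, 16.5% and 48.9% at alternative starts, and requiring summits within 100 bp gave 4491 at 4112 genes, 33.8% and 43.1%. Summits within 500 bp of a start gave 5.90%, 50.8%, 37.5% and 3.64%, and within 2500 bp 1505 promoters at 1390 genes, 10.0%, 58.4%, 49.0% and 34.4%. Starts of protein-coding transcripts gave 6.15%, 41.9%, 30.4% and 14.5%, starts of basic transcripts 5.68%, 36.1%, 20.9% and 16.1%, and 1 start per gene 540 promoters at 534 genes and 5.13%. Adding chromosome X moved none of these values beyond their intervals. A stricter q in KO alone, or fewer admitted starts, leaves fewer peaks that can qualify by construction. A stricter q in both lists also leaves fewer WT peaks that can be found at the same or another start. Counting a WT peak within 500 bp as shared removes promoters with a near WT peak, and a longer distance lets more WT summits count as near the start. How much of each change came from the rule, and the causes of the other changes, were not tested. Across the alternatives the median pileup ran from 11 to 21 and the median CG ratio from 0.372 to 0.728. The number of reads behind either list limits every statement on absence, since the lowest called pileup was 6.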
